A study of Mus musculus with 7 samples.

Results

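The accessible chromatin of 9 genes of the glucocorticoid pathway was examined in mouse liver: Nr3c1, Hsd11b1, Fkbp5, Tsc22d3, Sgk1, Dusp1, Zbtb16, Klf9 and Lcn2. The genes were chosen by name, and each was taken with its gene body and 20 kb on either side. These windows covered 993.9 kb of the mouse genome assembly mm9. They overlapped 106 of 72286 DNase I hotspots, 103 of 60910 Benzonase hotspots and 96 of 57675 Cyanase hotspots, a hotspot being a stretch where cleavage tags cluster above background. Hotspots that overlapped by at least 1 bp were merged across the enzymes, which gave 127 of the 94491 merged regions of the genome.

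All 7 samples were liver of male C57BL/6 mice aged 8 weeks, with no treatment named in the labels. Benzonase and Cyanase, nucleases that remain active in detergent, were each applied to frozen liver at 0.25, 1 and 4 U, with 1 sample at each amount. The labels call this tissue intact, and by the study's methods it was pulverized while frozen before digestion. DNase I, the classical probe of open chromatin, was applied in 1 sample labelled fresh liver tissue, and the study's methods used purified nuclei for it. The study's text describes the DNase I tags as combined from replicates, so its list may pool more than the 1 labelled sample. Enzyme and starting material changed together, so their effects cannot be told apart. The authors pooled the tags of each enzyme and deposited 1 hotspot list per enzyme at a false discovery threshold of 0%, which gives the position of each hotspot and no tag number or height. There is thus no spread between replicates and no test between enzymes, the tags behind a single hotspot are unknown, and intervals beside shares are 95% Wilson intervals for counting error alone. In whole liver, fewer cells of a type with an open site and a less open site in every cell cannot be told apart.

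The glucocorticoid receptor is a nuclear receptor that waits in the cytoplasm with Hsp90 chaperones. When cortisol or, in mice, corticosterone binds, it moves to the nucleus and binds DNA at glucocorticoid response elements, short inverted repeats that it occupies as a dimer. In liver it is known for driving glucose production and amino acid breakdown during fasting and stress, and it mostly binds where chromatin is already open.

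The liver identity of the lists was checked with marker genes at their transcription start sites (TSSs). All 8 hepatocyte markers had a TSS inside hotspots of all 3 enzymes, and the 2 lymphocyte markers had none. Of 3 Kupffer cell and macrophage markers in the annotation, 3 were held by DNase I, 0 by Benzonase and 1 by Cyanase. Of 3 stellate cell markers, 0 were held by DNase I, 2 by Benzonase and 3 by Cyanase. Of 3 endothelial markers, 0 were held by DNase I, 1 by Benzonase and 1 by Cyanase. Of 3 bile duct markers, 1 was held by DNase I, 2 by Benzonase and 1 by Cyanase. Among 4 genes listed here as not expected in liver, Cyanase held 1, Gfap, and the other enzymes 0. The part of these other cell types in the results below was not tested.

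The regions were first sorted by the enzymes that found them. Of the 127 regions, 72 (56.7%, interval 48.0 to 65.0) carried hotspots of all 3 enzymes, beside 40.0% of all merged regions. With an overlap of 50% of both hotspots in place of 1 bp, 63 of 149 regions (42.3%) had all 3 enzymes. Regions with DNase I and at least 1 of the other enzymes are called common here, and there were 78 of them (61.4%, interval 52.7 to 69.4, beside 45.4% of all regions). DNase I unique regions numbered 23 (18.1%, interval 12.4 to 25.7), beside 28.3% of all regions. Benzonase-Cyanase unique regions, with no DNase I hotspot, numbered 26 (20.5%, interval 14.4 to 28.3), beside 26.3% of all regions. Their share was 28.9% with the 50% overlap and 12.0% without the hotspots narrower than the lower quartile of their list. The shares of all regions were computed with the 1 bp rule and every hotspot alone. They are thus not a like comparison for the 42.3%, 28.9% and 12.0%. The Benzonase-Cyanase unique class was made up of 14 regions with both enzymes, 7 with Benzonase alone and 5 with Cyanase alone. Regions of 1 gene share a locus, so they are not independent draws.

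The windows were dense in hotspots. They held 12.8 regions per 100 kb, against 3.56 per 100 kb of the whole assembly. Hotspots covered 9.19% of the windows for DNase I, 9.42% for Benzonase and 8.98% for Cyanase, beside 1.95%, 1.81% and 1.66% of the assembly. Fkbp5 and Zbtb16 alone gave 55 of the 127 regions, and the median protein-coding gene had 4 regions in a window drawn the same way. Of 22365 protein-coding genes, 0.689% had at least as many regions as Fkbp5 and 0.595% at least as many as Zbtb16, both of which are long genes. The share was 1.91% for Tsc22d3, 4.30% for Hsd11b1, 9.98% for Nr3c1, 16.7% for Sgk1 and 21.2% for Dusp1. For Klf9 and Lcn2 it was 43.9% and 54.2%, so both were near the middle of all genes. The density per 100 kb in windows of other genes was not computed.

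**Figure D1:**
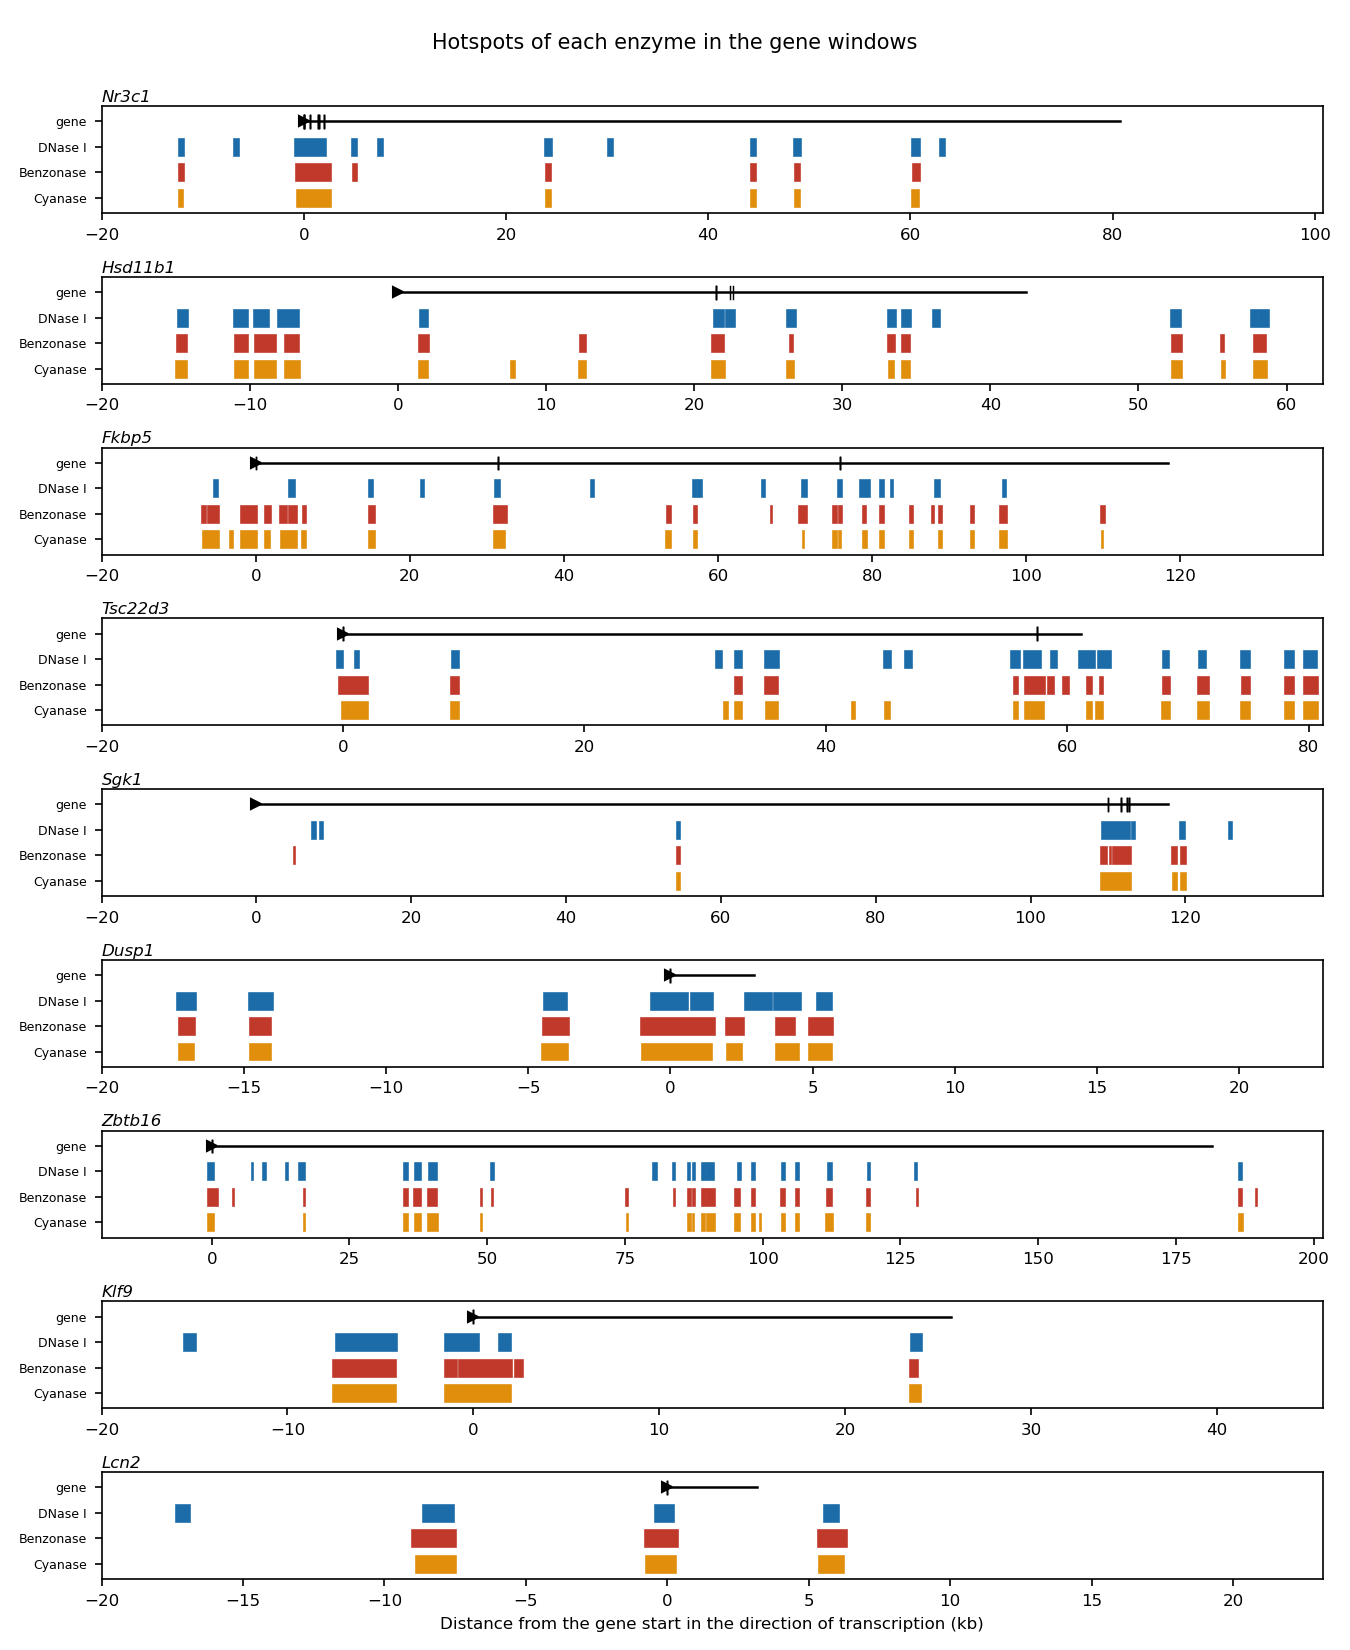
Hotspots of DNase I (blue), Benzonase (red) and Cyanase (orange) in the windows of the 9 genes, drawn to scale from the gene start in the direction of transcription (kb), with the gene as a black line and ticks at start sites that lie in a hotspot. Fkbp5 and Zbtb16 hold 27 and 28 merged regions, and Lcn2 and Klf9 hold 4 and 5.

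Nr3c1 (ENSMUSG00000024431.7) encodes the receptor itself. It lies on the minus strand of chromosome 18, from 39570199 to 39650955. Its window held 11 DNase I, 7 Benzonase and 6 Cyanase hotspots in 11 regions, of which 6 were found by all 3 enzymes. The other regions were 4 DNase I unique ones and 1 with DNase I and Benzonase, so every region of the receptor gene was called by DNase I and 0 were Benzonase-Cyanase unique. The widest region, chr18:39648271-39651900, spans 3630 bp around the alternative first exons, overlaps a CpG island of 2898 bp and holds 6 of the 8 annotated TSSs. Here DNase I marked 3185 bp, Benzonase 3514 bp and Cyanase 3472 bp, so the 3 enzymes outlined the promoter at nearly the same size. The widest DNase I unique region, chr18:39657338-39657974, lies 6.70 kb upstream of the nearest TSS and has a G+C content of 32.5%, the lowest of the 127 regions. Of 8 regions inside the gene apart from the promoter, 6 had their centre in intron 2 and 1 in intron 3, and 1 had it in exon 2.

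Hsd11b1 (ENSMUSG00000016194.8) encodes 11-beta-hydroxysteroid dehydrogenase type 1, which turns inactive 11-keto steroids back into active glucocorticoid inside hepatocytes. It lies on the minus strand of chromosome 1, from 195047824 to 195090248, and had 14 DNase I, 13 Benzonase and 14 Cyanase hotspots in 15 regions. All 3 enzymes shared 11 of the 15. The promoter region chr1:195067486-195069087 holds 3 TSSs, all of them in DNase I hotspots and 1 of them, that of transcript Hsd11b1-002, in hotspots of all 3 enzymes. At Hsd11b1-002 the hotspots were 763 bp for DNase I, 869 bp for Benzonase and 898 bp for Cyanase. A further DNase I hotspot of 706 bp lay on the gene side and held the TSSs of Hsd11b1-005 and Hsd11b1-003, where Benzonase had none and Cyanase reached only its last bases. The TSS of the longest transcript, Hsd11b1-001 at 195090248, lay in no hotspot of any enzyme. The nearest region, chr1:195088162-195088904, was centred 1.72 kb into the gene and was found by all 3. The widest Benzonase-Cyanase unique region was chr1:195077540-195078065 in intron 1, where Benzonase marked 460 bp and Cyanase 502 bp. The single DNase I unique region, chr1:195053662-195054199 in intron 5, is taken up below with its response element. Upstream, 4 regions in a row were shared by all 3 enzymes, and 2 of them overlapped the promoter of the neighbouring gene G0s2, an inhibitor of triglyceride breakdown.

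Fkbp5 (ENSMUSG00000024222.9) encodes FKBP51, an Hsp90 co-chaperone that lowers the hormone affinity of the receptor and closes a negative feedback loop, since the gene is a classical receptor target. The gene spans 28536040 to 28654469 on the minus strand of chromosome 17. Its 27 regions held 16 DNase I, 23 Benzonase and 20 Cyanase hotspots. Unlike at the receptor gene, Benzonase-Cyanase unique regions made up 11 of the 27, while 11 were found by all 3 enzymes and 5 were DNase I unique. DNase I hotspots covered 6.78% of this window, against 12.1% for Benzonase and 11.2% for Cyanase. At 3 start sites the enzymes gave 3 different pictures. The TSS of the longest transcript, Fkbp5-004 at 28654469, lay in a Benzonase hotspot of 2236 bp and a Cyanase hotspot of 2206 bp, and in no DNase I hotspot. This region, chr17:28654303-28656566, overlaps a CpG island of 430 bp, was the widest Benzonase-Cyanase unique region of the 9 genes, and lay 2809 bp from the nearest DNase I hotspot. At Fkbp5-001, within a CpG island of 1029 bp, DNase I marked 818 bp, Benzonase 1820 bp and Cyanase 1624 bp. At Fkbp5-002, with no island, the order was turned, with 634 bp for DNase I, 564 bp for Benzonase and 419 bp for Cyanase.

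The widest region of the Fkbp5 window, chr17:28659179-28661556, spans 2378 bp at the promoter of E230001N04Rik and was found by all 3 enzymes, with 590 bp marked by DNase I and 2203 bp by Cyanase. The widest DNase I unique region, chr17:28596497-28597162 in intron 4, lay 30 bp from the nearest Benzonase or Cyanase hotspot. The 250 bases before Fkbp5-001 (mm9, minus strand, chr17:28623095-28623344) are shown as the Fkbp5 promoter in an island that all 3 enzymes held. Capitals mark 3 matches to the GC box GGGCGG on either strand, and the G+C content was 68%. At least 1 match was in 40.1% of 22365 promoter stretches of this length.
Fkbp5-001: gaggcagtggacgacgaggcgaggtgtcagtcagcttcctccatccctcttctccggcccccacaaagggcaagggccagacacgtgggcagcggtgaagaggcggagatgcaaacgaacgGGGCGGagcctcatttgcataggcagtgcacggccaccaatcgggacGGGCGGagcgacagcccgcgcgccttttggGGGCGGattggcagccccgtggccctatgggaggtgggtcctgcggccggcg

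Tsc22d3 (ENSMUSG00000031431.7) encodes GILZ, a leucine zipper protein that carries part of the anti-inflammatory action of glucocorticoids. It lies on the minus strand of chromosome X, from 137074067 to 137135198, with 18 DNase I, 15 Benzonase and 18 Cyanase hotspots in 20 regions. All 3 enzymes shared 13 of them, including all 7 downstream of the gene. The promoter of the long transcript Tsc22d3-006 lies in the widest region, chrX:137133140-137135741, which overlaps a CpG island of 2366 bp. Benzonase marked it with 1 hotspot of 2431 bp. Cyanase split it into hotspots of 1968 and 253 bp, and DNase I into hotspots of 422 and 582 bp, so that DNase I left most of the island unmarked. The promoter of Tsc22d3-001 lies outside an island, in chrX:137077095-137078893, with 1545 bp for DNase I, 1710 bp for Benzonase and 1151 bp for the Cyanase hotspot over the TSS. The TSS of Tsc22d3-005, at 137082877, was in no hotspot. The widest DNase I unique region was chrX:137088051-137088744 in intron 2, and the widest Benzonase-Cyanase unique region was chrX:137075093-137075636 over exon 4, called by Benzonase alone. The 250 bases before Tsc22d3-001 (mm9, minus strand, chrX:137077727-137077976) are shown as the GILZ promoter that all 3 enzymes held without an island. Capitals mark 1 match to TGTTTAC, the core bound by Foxa pioneer factors of hepatocytes, which 2.71% of promoter stretches held.
Tsc22d3-001: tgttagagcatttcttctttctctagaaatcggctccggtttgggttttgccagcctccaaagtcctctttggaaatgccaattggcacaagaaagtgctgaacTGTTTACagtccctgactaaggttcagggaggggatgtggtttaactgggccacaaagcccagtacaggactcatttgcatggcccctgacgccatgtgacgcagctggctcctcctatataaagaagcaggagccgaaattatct

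Sgk1 (ENSMUSG00000019970.9) encodes a serum and glucocorticoid regulated kinase that acts on ion channels and transporters. On the plus strand of chromosome 10, from 21601990 to 21719709, its 9 regions held 7 DNase I, 7 Benzonase and 5 Cyanase hotspots. Only 3 of the 9 were found by all 3 enzymes, with 4 DNase I unique and 2 Benzonase-Cyanase unique. Accessibility was gathered at the 3′ cluster of start sites. The region chr10:21710983-21714912 spans 3930 bp, the widest of the 127, and holds 4 TSSs. DNase I marked it with 1 hotspot of 3796 bp, Cyanase with hotspots of 1300 and 2619 bp, and Benzonase with hotspots of 839, 253 and 2363 bp. The TSSs of 3 transcripts lay in hotspots of every enzyme, and the TSS of Sgk1-007 fell in a gap between Benzonase hotspots. The start sites at 21601990, 21648276 and 21698478, of the longer transcripts, were in no hotspot, and a CpG island of 320 bp beside the first, chr10:21602056-21602375, was marked by no enzyme. It was the only one of 13 islands in the windows with 0 enzymes. The widest DNase I unique region was chr10:21609029-21609656 in intron 1, and the widest Benzonase-Cyanase unique region was chr10:21720126-21720951, downstream of the gene.

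Dusp1 (ENSMUSG00000024190.6) encodes a phosphatase that switches off MAP kinases and is an early target of the receptor. It is a gene of 2.93 kb on the minus strand of chromosome 17, from 26642535 to 26645464. Its 8 regions held 8 DNase I, 7 Benzonase and 7 Cyanase hotspots, and 6 were found by all 3 enzymes. The widest region, chr17:26643911-26646526, covers the TSS, a CpG island of 922 bp and exons 1 to 3. Benzonase and Cyanase marked it with single hotspots of 2616 and 2518 bp. DNase I left a gap within it, with hotspots of 1364 bp over the TSS and 809 bp inside the gene. At the 3′ end the enzymes met without overlap: the DNase I unique region chr17:26641891-26642886 and the Benzonase-Cyanase unique region chr17:26642889-26643527 over exon 4 were separated by 2 bp. Their G+C contents were 43.4% and 52.7%. The 250 bases before the TSS (mm9, minus strand, chr17:26645465-26645714) are shown for the palindrome at their centre. Capitals mark a cAMP response element, TGACGTCA, flanked by a GC box on each strand. The cAMP response element is bound by CREB, a factor of the fasting response, and 1.94% of promoter stretches held a match.
Dusp1-001: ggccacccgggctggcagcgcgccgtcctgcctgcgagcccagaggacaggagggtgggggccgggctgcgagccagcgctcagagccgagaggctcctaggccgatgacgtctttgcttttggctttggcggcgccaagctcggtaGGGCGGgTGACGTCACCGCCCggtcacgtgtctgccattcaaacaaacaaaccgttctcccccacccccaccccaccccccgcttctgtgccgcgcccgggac

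Zbtb16 (ENSMUSG00000066687.4) encodes PLZF, a zinc finger repressor. It is the longest of the 9 genes at 181.6 kb, on the minus strand of chromosome 9 from 48462416 to 48644050, with 23 DNase I, 23 Benzonase and 19 Cyanase hotspots in 28 regions. All 3 enzymes shared 16 of them. Intron 2 held the centres of 16 regions and intron 3 of 6, of which 8 and 5 were found by all 3 enzymes. The promoter region chr9:48643006-48645002, at a CpG island of 1871 bp, was the widest, with 1997 bp for Benzonase, 1337 bp for Cyanase and 1196 bp for DNase I. The widest DNase I unique region was chr9:48563227-48564045 and the widest Benzonase-Cyanase unique region chr9:48568431-48568952, both in intron 2. The 4 DNase I unique regions here had G+C contents between 49.6% and 51.6%, near the 52.5% of that Benzonase-Cyanase unique region.

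Klf9 (ENSMUSG00000033863.1) encodes a Krüppel-like factor that glucocorticoids and thyroid hormone induce. On the plus strand of chromosome 19, from 23215716 to 23241401, its 5 regions held 5 DNase I, 5 Benzonase and 4 Cyanase hotspots. The widest region, chr19:23214117-23217803, covers the TSS and a CpG island of 1835 bp. Over the TSS the hotspots were 1855 bp for DNase I, 2923 bp for Benzonase and 2850 bp for Cyanase. A region of 3499 bp centred 5.86 kb upstream, chr19:23208107-23211605, was outlined alike by all 3, at 3345 bp for DNase I, 3433 bp for Benzonase and 3447 bp for Cyanase. The DNase I unique region was chr19:23200087-23200817, 15.3 kb upstream, and the Benzonase-Cyanase unique region was chr19:23217894-23218402 in intron 1, called by Benzonase alone.

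Lcn2 (ENSMUSG00000026822.9) encodes lipocalin 2, a secreted protein of the acute phase response that binds iron siderophores. It lies on the minus strand of chromosome 2, from 32240153 to 32243317, and had 4 DNase I, 3 Benzonase and 3 Cyanase hotspots in 4 regions. All 3 enzymes held the TSS, in chr2:32242953-32244126, with 696 bp for DNase I, 1174 bp for Benzonase and 1079 bp for Cyanase. The widest region of the window, chr2:32250778-32252367, belongs to the promoter of Ptges2, and another lay at the promoter of 1110008P14Rik. The DNase I unique region was chr2:32260184-32260715, centred 17.1 kb upstream.

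**Figure D2:**
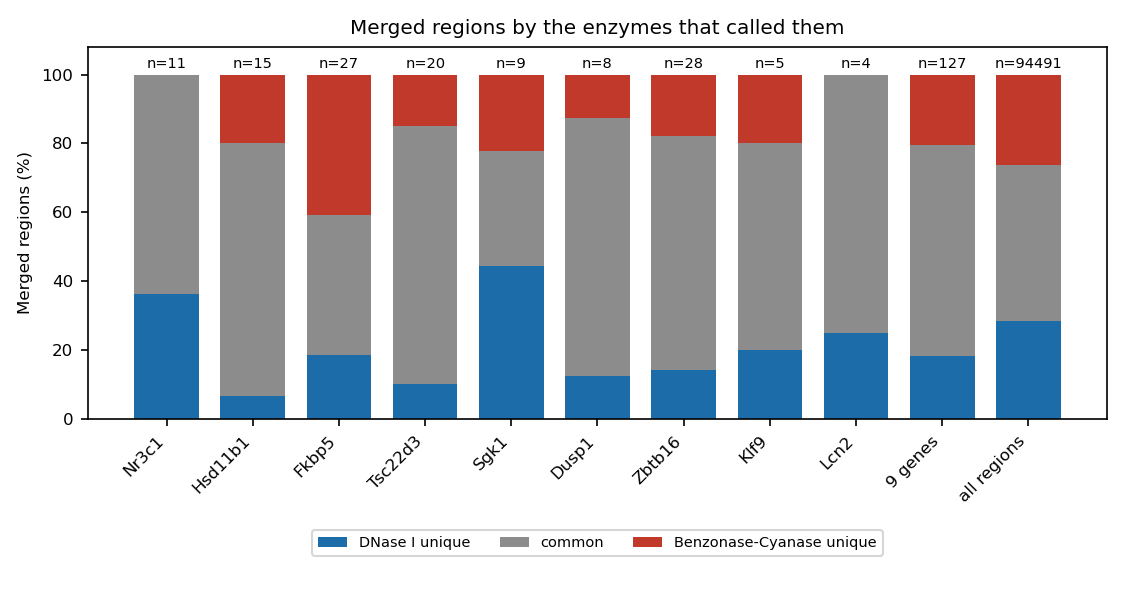
Share of merged regions (%) that were DNase I unique (blue), common (grey) and Benzonase-Cyanase unique (red) for each gene, for the 9 genes together and for all regions, with the number of regions above each bar. Benzonase-Cyanase unique regions made up 11 of 27 at Fkbp5 and 0 of 11 at Nr3c1, and DNase I unique regions 4 of 9 at Sgk1.

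Start sites were compared over all genes. Every one of the 9 genes had a TSS inside a hotspot of DNase I, of Benzonase and of Cyanase, when any protein-coding TSS counted. With the most upstream TSS of each gene alone, DNase I held 6 of 9, Benzonase 7 and Cyanase 7. No share over all genes was computed for the most upstream TSS, and those that follow count any protein-coding TSS. Over 22365 protein-coding genes, 47.4% had a TSS in a DNase I hotspot, 57.4% in a Benzonase hotspot, 55.7% in a Cyanase hotspot and 46.1% in hotspots of all 3. The 31 distinct TSSs of the 9 genes fall into 17 groups when TSSs within 2.5 kb are joined. All 3 enzymes held 11 of the groups, no enzyme held 5, and 1, that of Fkbp5-004, was held by Benzonase and Cyanase without DNase I. Of 12 regions at the genes' own start sites, 11 had all 3 enzymes. The share was 36 of 81 (44.4%, interval 34.1 to 55.3) for regions inside a gene with no TSS and 20 of 29 (69.0%, interval 50.8 to 82.7) for regions in the flanks away from promoters. The shares of all regions by place were not computed, so this contrast is not shown to be particular to the 9 genes.

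In each of the 11 groups held by all 3 enzymes, 1 start site was measured, the most upstream that all 3 held. At these 11 start sites, the hotspots differed on the gene side of the TSS. DNase I reached a median of 329 bp downstream, Cyanase 599 bp and Benzonase 1171 bp. The reach depends on the start site taken. At Nr3c1 it was 2239 bp for DNase I from Nr3c1-005, measured here, and 221 bp from Nr3c1-007. The DNase I hotspot over the TSS stopped before that of Benzonase at 11 of 11 start sites and before that of Cyanase at 10 of 11. The exception was Fkbp5-002. The margin ranged widely, from 18 bp at Hsd11b1-002 to 2008 bp at Tsc22d3-006. Only the hotspot over the TSS was measured, and at Hsd11b1, Klf9, Dusp1 and Tsc22d3-006 a further DNase I hotspot lay downstream in the same region. At Hsd11b1 it reached 195067486, beyond the Benzonase bound at 195068209. At Klf9 it reached 23217731, near the Benzonase bound at 23217803. At Dusp1 and Tsc22d3-006 it ended 55 and 693 bp short of Benzonase. Upstream the medians lay closer together, at 731 bp for DNase I, 776 bp for Cyanase and 835 bp for Benzonase, and DNase I stopped short of Benzonase at 5 of 11. The same was measured over all genes. Over 10275 genes with such a start site, the median downstream reach was 341 bp for DNase I, 648 bp for Cyanase and 707 bp for Benzonase, and DNase I stopped before Benzonase at 88.4%. Upstream it stopped before Benzonase at 70.6% of these genes, beside 45.5% (interval 21.3 to 72.0) of the 11 start sites. At Klf9 and Sgk1, further Benzonase hotspots lay upstream in the same region. They began at 23214117 and 21711009, before the DNase I bounds at 23214145 and 21711041. Upstream reach over whole regions was not computed, so this contrast is not shown to be particular to the 9 genes.

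**Figure D3:**
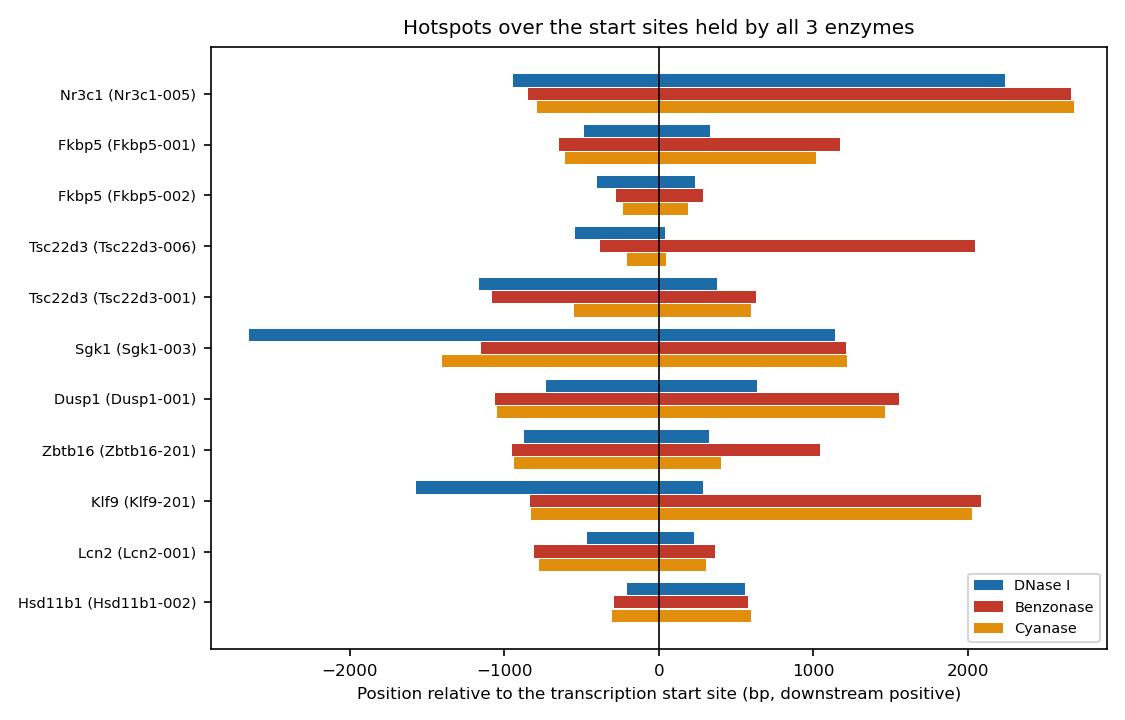
Extent of the hotspot over each of the 11 start sites held by all 3 enzymes, in bp from the start site, with downstream to the right. The DNase I hotspot over the start site (blue) ended before that of Benzonase (red) on the downstream side at all 11.

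Widths and bounds were then compared over the whole windows, start sites included. The median width was 704.5 bp for DNase I (interval 662 to 731), 733 bp for Benzonase (636 to 801) and 718.5 bp for Cyanase (632 to 829), and these intervals overlap. The medians of the whole lists were 649, 652 and 641 bp. In the 63 regions with exactly 1 hotspot of each enzyme, the bounds of Benzonase and Cyanase lay a median of 27.5 bp apart, those of DNase I and Benzonase 76 bp and those of DNase I and Cyanase 74.5 bp. Of 126 bounds, 77.0% of the Benzonase and Cyanase pairs lay within 50 bp, against 38.1% for DNase I and Benzonase and 31.7% for DNase I and Cyanase. Over 33922 such regions of the genome the shares were 65.0%, 38.5% and 38.5%. DNase I hotspots were wider than Benzonase hotspots in 31 of the 63 regions and narrower in 32, with a median difference of -4 bp (interval -80 to 70), so neither was wider throughout.

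**Figure D4:**
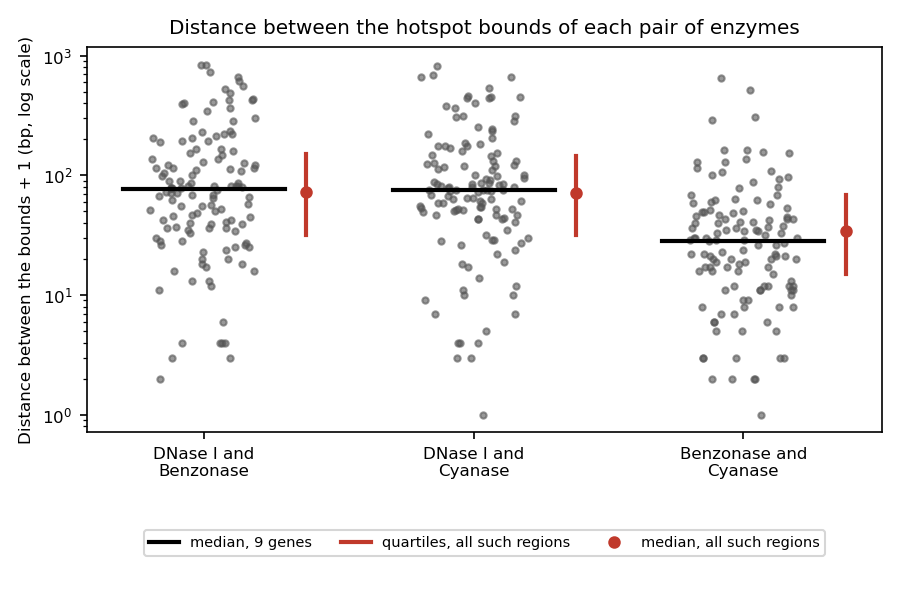
Distance between the bounds of each pair of enzymes (bp plus 1, log scale) at the 63 regions with 1 hotspot of each enzyme, both bounds shown as points. The median (black bar) is 27.5 bp for Benzonase and Cyanase and 76 and 74.5 bp for the pairs with DNase I, and red marks the median and quartiles of all such regions of the genome.

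Base composition differed between the regions of 1 kind of enzyme. The median G+C content was 40.7% in the 23 DNase I unique regions (interval 38.5 to 44.6), 48.1% in the 78 common regions (47.0 to 50.1) and 51.5% in the 26 Benzonase-Cyanase unique regions (50.1 to 52.5). The same classes over all regions had medians of 42.3%, 48.8% and 54.3%. Of the DNase I unique regions, 16 of 23 lay below the lowest Benzonase-Cyanase unique region, which was at 43.8%. CpG islands overlapped 12 of the 127 regions, beside 13.8% of all regions. They overlapped 11 common regions (14.1%, beside 22.1% of all common regions) and 1 Benzonase-Cyanase unique region (3.85%, beside 14.1% of all such regions). They overlapped 0 of 23 DNase I unique regions, with a Wilson upper bound of 14.3%, beside 0.198% of all such regions.

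**Figure D5:**
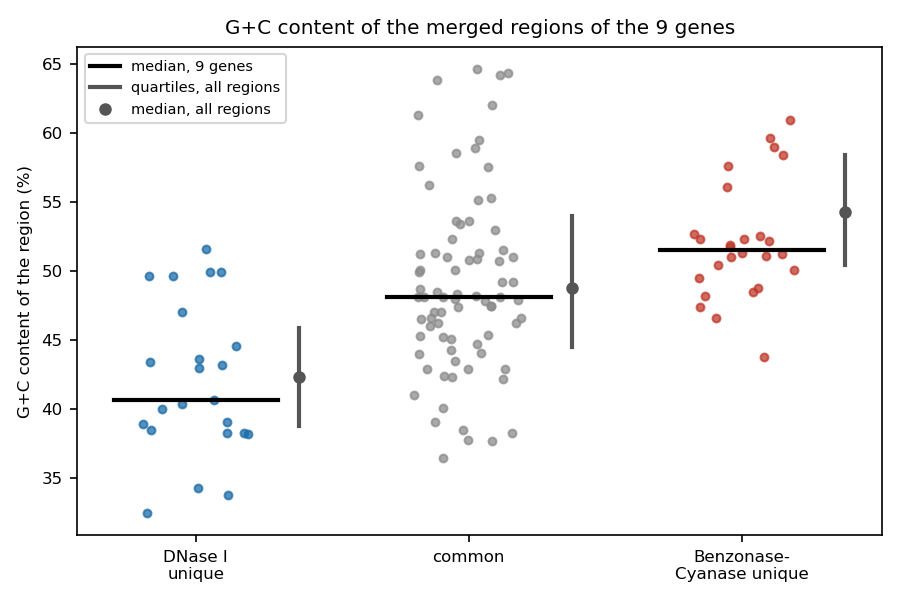
G+C content (%) of each merged region of the 9 genes by the enzymes that called it, with the median as a black bar and the median and quartiles of all regions of the class in grey. The DNase I unique regions run from 32.5% to 51.6% and the Benzonase-Cyanase unique regions from 43.8% to 60.9%.

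Some unique regions bordered a hotspot of the other kind of enzyme. The nearest such hotspot was within 150 bp for 4 of 23 DNase I unique regions and 4 of 26 Benzonase-Cyanase unique regions, and within 1 kb for 6 and 10. The median distances were 2724 and 1885 bp. Most unique regions of both kinds in these windows therefore lay more than 1 kb from a hotspot of the other kind. The distances for all unique regions of the genome were not computed, and the windows were denser in regions than the assembly. The counts are thus not shown to be particular to the genes examined.

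Glucocorticoid response elements were searched as GNACA and TGTNC with 3 bases between them, a pattern that reads the same on both strands. In the central 300 bp of the regions, 4 of 127 (3.15%, interval 1.23 to 7.82) held a match, beside 0.870% of all merged regions. Over whole regions of any width there were 18 matches in 16 regions of 7 genes, with none at Nr3c1 or Tsc22d3. The density was 14.6 matches per 100 kb of region (Poisson interval 8.67 to 23.1), against 2.32 over all regions and 1.38 (0.712 to 2.41) in the parts of the 9 windows outside regions. The genes were chosen by name from the glucocorticoid pathway, known receptor targets among them, and a match is a description and not a bound site. The matches outside the central 300 bp were named after their values were seen.

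The matches were read against the hotspots that covered them. Benzonase hotspots covered 15 of the 18 matches (83.3%, interval 60.8 to 94.2), Cyanase hotspots 15 and DNase I hotspots 9 (50%, interval 29.0 to 71.0). Over the 1680 matches of all regions the shares were 75.2%, 70% and 69.5%. All 3 enzymes covered 7, Benzonase and Cyanase without DNase I covered 7 (38.9%, interval 20.3 to 61.4, beside 16.9% of all matches), and 1 enzyme alone covered 4. Fkbp5 gave 5 of the 7 matches covered by Benzonase and Cyanase without DNase I. Among the 12 matches of the other genes, DNase I covered 8, Benzonase 9 and Cyanase 9. The other 2 lay at the promoters of Dusp1 and Lcn2, beyond the upstream end of a DNase I hotspot by 236 and 13 bp.

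The 4 central matches are shown first, since they lie where a hotspot is centred, each in 101 bases of mm9 on the minus strand with the element in capitals. The Fkbp5 match lies in intron 4, 704 bp upstream of Fkbp5-002, at chr17:28579321-28579421. Its region, chr17:28579069-28579742, was marked by Benzonase over 674 bp and by Cyanase over 610 bp, and the DNase I hotspot at the neighbouring TSS ended 298 bp before the element. Of the Zbtb16 pair in intron 3, the match at chr9:48544569-48544669 lies in chr9:48544436-48544686, which Cyanase alone called at 251 bp. The other, at chr9:48545663-48545763, lies in chr9:48545377-48546232, which all 3 enzymes called at 736 bp for DNase I, 796 bp for Benzonase and 856 bp for Cyanase. The Hsd11b1 match, at chr1:195053803-195053903 in intron 5, lies in the DNase I unique region of 538 bp, 1804 bp from Benzonase and 1793 bp from Cyanase.
Fkbp5 intron 4: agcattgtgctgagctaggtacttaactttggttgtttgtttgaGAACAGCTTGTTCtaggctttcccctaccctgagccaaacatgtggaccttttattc
Zbtb16 intron 3, Cyanase alone: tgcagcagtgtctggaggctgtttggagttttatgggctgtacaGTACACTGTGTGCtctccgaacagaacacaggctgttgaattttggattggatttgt
Zbtb16 intron 3, all enzymes: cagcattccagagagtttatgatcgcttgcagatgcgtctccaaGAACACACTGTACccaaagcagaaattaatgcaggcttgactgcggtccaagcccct
Hsd11b1 intron 5: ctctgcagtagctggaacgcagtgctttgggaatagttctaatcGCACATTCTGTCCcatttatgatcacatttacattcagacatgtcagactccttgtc

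Further matches are shown because all 3 enzymes covered them at known target genes. The first lies in intron 8 of Fkbp5 (minus strand, chr17:28557223-28557323), where DNase I marked 578 bp, Benzonase 1093 bp and Cyanase 1090 bp. The second lies 182 bp upstream of Sgk1-003 (plus strand, chr10:21713464-21713564), inside the wide Sgk1 promoter region. A full match within the 250 bases before a TSS was rare, at 0.353% of promoter stretches. The third lies in intron 3 of Zbtb16 (minus strand, chr9:48548334-48548434), where a pair of overlapping matches starts 9 bp apart, and the capitals mark 1 of them. The fourth lies 6.13 kb upstream of Klf9 (plus strand, chr19:23209539-23209639), in the region of 3499 bp.
Fkbp5 intron 8: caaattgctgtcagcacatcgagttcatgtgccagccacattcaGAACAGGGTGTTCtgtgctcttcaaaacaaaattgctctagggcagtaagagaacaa
Sgk1 promoter: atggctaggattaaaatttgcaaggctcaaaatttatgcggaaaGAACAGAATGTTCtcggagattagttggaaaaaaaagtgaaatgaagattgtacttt
Zbtb16 intron 3, overlapping pair: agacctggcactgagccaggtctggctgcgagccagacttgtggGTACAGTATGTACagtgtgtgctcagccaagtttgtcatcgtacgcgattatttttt
Klf9 upstream: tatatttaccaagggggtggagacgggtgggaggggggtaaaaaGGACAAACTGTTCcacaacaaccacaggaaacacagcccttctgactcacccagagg

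The promoter matches of Dusp1 and Lcn2, which Benzonase and Cyanase covered and DNase I did not, are shown for contrast. The Dusp1 match is centred 974 bp upstream of the TSS (minus strand, chr17:26646388-26646488). The Lcn2 match is centred 486 bp upstream of the TSS (minus strand, chr2:32243753-32243853).
Dusp1 upstream: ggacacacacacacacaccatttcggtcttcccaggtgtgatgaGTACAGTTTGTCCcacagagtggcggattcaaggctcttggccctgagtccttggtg
Lcn2 upstream: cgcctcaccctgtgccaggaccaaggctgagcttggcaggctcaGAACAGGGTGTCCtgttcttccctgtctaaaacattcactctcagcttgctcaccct

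Other motifs were near the background of all regions. In the central 300 bp, searched on both strands, the single receptor site TGTTCT was in 26.8% of the 127 regions (interval 19.8 to 35.1) and 22.7% of all regions. This motif overlaps the full element in part. The Foxa core TGTTTAC was in 5.51% and 6.60%, the GC box GGGCGG in 15.7% and 15.8%, and the C/EBP site TTGCGNAA in 0.787% and 1.04%. The AP-1 site TGANTCA was in 13.4% (interval 8.53 to 20.4) and 9.96%, and the cAMP response element TGACGTCA in 0.787% and 0.684%. The intervals of the member shares held the share of all regions for each of these motifs.

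The wider pathway was read at its start sites, with 50 of 52 listed genes found in the annotation. DNase I held a TSS of 43, Benzonase of 47 and Cyanase of 46, and all 3 enzymes held 43. Over all protein-coding genes the shares were 47.4% for DNase I, 57.4% for Benzonase, 55.7% for Cyanase and 46.1% for all 3. All 7 receptor chaperones, among them the genes of Hsp90, were held by every enzyme, as were 9 of 11 coregulators, 6 of 7 genes of steroid transport and metabolism and 21 of 25 further targets. Benzonase and Cyanase without DNase I held Ncoa1 and Crebbp, which encode coactivators of the receptor, and Tgm2, a transglutaminase. Benzonase alone held Hsd11b2, which inactivates glucocorticoid in kidney. No enzyme held Sult1e1, an estrogen sulfotransferase, Anxa1, an anti-inflammatory annexin, or Il1r2, a decoy receptor of interleukin 1. Each gene of the list that DNase I held was also held by Benzonase and Cyanase.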

How the data were processed

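Tags were aligned by the authors to mm9 (Eland or Bowtie), combined for each enzyme and turned into hotspots with a false discovery threshold of 0%. The study's methods also name a tag density threshold at the mode, and whether the deposited lists applied it is not known. For each enzyme, the study's text reports fewer hotspots than the 72286 (DNase I), 60910 (Benzonase) and 57675 (Cyanase) listed here. The lists used are thus not the same as the published sets. The deposited lists hold hotspot positions in 3 columns (chromosome, start and end), and per the file headers they are input adjusted and unmerged. They carry no counts, scores or tag densities, so the depth behind a hotspot is unknown, and the library depth that the study's text gives was not used here. There were 0 columns of other samples.

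Samples were grouped by the enzyme in the labels (3 Benzonase, 3 Cyanase and 1 DNase I). Positions were read on mm9 (NCBIM37, GENCODE M1) and printed counting from 1. Hotspots overlapping by at least 1 bp were merged into regions, and a region was placed by its centre against the longest protein-coding transcript of the gene. CpG islands were maximal-scoring segments (17 for a CpG, -1 for another base) of at least 200 bp with G+C over 50% and observed to expected CpG over 0.6. Promoter stretches were the 250 bases before the TSS, and promoters of other genes the 2 kb before it. Intervals were Wilson for shares, exact binomial order statistics for medians and exact Poisson for densities, all at 95%. No test was run, because each list is pooled. Merging, islands and the element search were tested on simulated data. Python 3.11.15, numpy 2.4.6, scipy 1.17.1, pysam 0.24.0, matplotlib 3.10.9 and samtools 1.23.1 were used.

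The genes, the wider list and the markers were chosen with earlier results of these data known. All 9 genes were named, and in each window the regions at a TSS, the widest region, the widest region of each unique class and those with a central response element. Of the wider list, genes not held by all enzymes were named. Cebpd, Tfcp2l1 and the marker Adgre1 had no entry under these symbols and were not analysed here. Alternatives were flanks of 5 and 50 kb or none, leaving out promoters of other genes, merging within a list, an overlap of 50% of both hotspots, joining within 150 bp, leaving out narrow hotspots, start sites within 1 kb of a hotspot, the first start site alone, all regions with the 3 enzymes for widths and bounds, the central 150 bp for G+C content and other element searches. Leaving out each gene was chosen after seeing the data. Sequences and G+C content came from the reference genome, which was not masked for repeats. The sequence of 1 promoter is not reported here.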

Additional observations from a re-analysis of the deposited data

How the results depend on the processing

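Because the lists are pooled, no replicate could be left out. No paired analysis was possible because each enzyme has 1 pooled list and no test was run. Of the values computed under alternatives, 91 stayed within the margin set for them (the 95% interval of the main value, or a fixed factor for counts) and 9 did not. The 91 include the values with 1 gene left out, which share most of their regions with the main value. The factor for counts was wide. Region numbers of 95 and 174, beside 127, stayed within it, as did 6 of 9 genes for DNase I at the most upstream TSS, beside 9. Asking for an overlap of 50% of both hotspots lowered the share of regions with all 3 enzymes to 42.3% and raised the Benzonase-Cyanase unique share to 28.9%. Without the hotspots narrower than the lower quartile of their list, the Benzonase-Cyanase unique share was 12.0%. Summed over regions with all 3 enzymes, the median width was 781 bp for DNase I and 813 bp for Benzonase. In the central 150 bp the median G+C content was 44.7% where DNase I was alone and 53.3% in Benzonase-Cyanase unique regions. The response element was in 12.6% of whole regions (1.73% of all merged regions), and the single site TGTTCT in 26.8% of central stretches. The cause of these moves was not tested, except that whole regions and a shorter motif offer more positions for a match.

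Leaving out 1 gene at a time gave a share with all 3 enzymes between 54.5% (without Hsd11b1) and 61.0% (without Fkbp5). The DNase I unique share lay between 16.1% (without Sgk1) and 19.6% (without Tsc22d3), and the Benzonase-Cyanase unique share between 15.0% (without Fkbp5) and 22.4% (without Nr3c1).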
